A study of Homo sapiens with 4 samples.

Results

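The S100 genes encode small calcium-binding proteins. Of 10 S100 genes considered (S100A2, S100A4, S100A6, S100A8, S100A9, S100A10, S100A11, S100A13, S100A16 and S100P), 8 had an annotated probe, 13 probes among the 47228 on the array and 8 of the 13321 genes named here. The members were every probe whose annotation, updated to current symbols, gave one of these names. S100A2 and S100A9 had no probe with a name here and were not analysed here. RNA came from CWR22Rv1 cells, an established human prostate carcinoma line that grows without androgen. It was measured on 4 Illumina bead arrays, 2 from cells stably expressing an shRNA against Siah2 (shSiah2), an E3 ubiquitin ligase, and 2 from cells with the pLKO.1 control vector. Both groups were infected with the vector, selected with puromycin and kept in serum-supplemented medium with puromycin. The labels give no shRNA sequence, do not say how many shRNAs or clones were used, and do not say whether the replicates were separate cultures, so the spread behind each p-value may be only technical. The series concerns castration-resistant prostate cancer, and the comparison asks which transcripts differ when Siah2 is depleted.

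S100 proteins carry a pair of EF-hand loops and mostly act as dimers. Calcium opens a pocket through which they bind partners, among them the annexins, which attach to membranes when calcium rises. S100A10 is an exception, since its loops no longer bind calcium and it stays in the open form, joined to annexin A2 in a complex at the inner face of the plasma membrane that also serves as a plasminogen receptor at the cell surface. Some members are released and act on receptors such as AGER (RAGE) and TLR4. Most of the genes lie in a cluster on chromosome 1, within the epidermal differentiation complex, while S100P lies on chromosome 4.

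The stretches of 250 bases directly before the annotated start of 3 members are shown because S100A10 and S100A6 were the members that fell in shSiah2 cells, and S100A11, the next tested gene to S100A10 on the chromosome, was not called. They are from RefSeq (GRCh38.p14), all on the minus strand, 5′ to 3′ towards the gene, at chr1:151993860-151994109 for S100A10, chr1:153535992-153536241 for S100A6 and chr1:152037005-152037254 for S100A11. Capitals mark the GC box GGGCGG.
S100A10: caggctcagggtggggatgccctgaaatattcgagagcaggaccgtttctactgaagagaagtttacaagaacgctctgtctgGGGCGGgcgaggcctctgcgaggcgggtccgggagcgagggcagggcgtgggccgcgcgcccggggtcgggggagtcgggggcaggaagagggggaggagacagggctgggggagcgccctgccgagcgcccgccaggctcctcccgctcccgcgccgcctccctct
S100A6: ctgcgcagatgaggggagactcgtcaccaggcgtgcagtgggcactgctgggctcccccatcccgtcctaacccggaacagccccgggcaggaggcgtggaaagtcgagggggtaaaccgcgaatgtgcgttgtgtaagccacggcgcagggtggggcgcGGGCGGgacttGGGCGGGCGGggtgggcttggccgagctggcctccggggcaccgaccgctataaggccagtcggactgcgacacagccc
S100A11: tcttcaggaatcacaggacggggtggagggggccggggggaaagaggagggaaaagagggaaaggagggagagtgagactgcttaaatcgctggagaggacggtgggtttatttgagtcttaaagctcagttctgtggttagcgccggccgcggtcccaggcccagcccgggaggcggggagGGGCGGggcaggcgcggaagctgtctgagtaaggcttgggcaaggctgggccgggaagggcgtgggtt

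All 3 stretches were rich in G and C, with 24 CpG dinucleotides before S100A10, 24 before S100A6 and 15 before S100A11, against a median of 11 over the 35116 stretches of this length in the table. The GC box, searched on both strands, occurred 1 time before S100A10, 3 times before S100A6, where a pair of copies overlap, and 1 time before S100A11. The box was present in 42.6% of all such stretches. Neither the palindromic androgen response element nor its half-site AGAACA, which the full element contains, was found on either strand before the 3 genes, and they occurred in 0.00285% and 12.4% of all stretches. The hypoxia response core ACGTG (18.5% of all stretches), the AP-1 site TGANTCA (6.57%), the antioxidant response core TGACNNNGC (10.9%) and the TATA box TATAAA (10.7%) were not found in them either. The TATA box did occur in at least 1 annotated window of 5 other members, 28 bases from the start of S100P, 31 from that of S100A4, 29 from those of S100A13 and S100A9, and 29 and 126 from those of S100A8. A match or its lack describes only these letters in this window.

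Between 19862 and 20632 probes had a detection p-value under 0.05 on each array, and the mean intensity lay between 649.8 and 846.2. After normalization, arrays correlated at 0.983 within shSiah2, at 0.985 within pLKO.1 and at 0.957 to 0.969 between groups. SIAH2 itself had a normalized intensity of 6.20 and 6.51 (log2) on the shSiah2 arrays, against 8.08 and 8.33 on the pLKO.1 arrays. It fell by 1.85 on the log2 scale (SE 0.251, limma adjusted p = 0.00117), which checks the labels. The size changed with the processing, and the log2 difference was -1.09 without background correction and -1.33 in the authors' value table, both past the threshold. The luminal epithelial markers KRT8, KRT18, EPCAM, CDH1, FOXA1 and HOXB13, 6 in all, were detected on all 4 arrays.

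A probe was tested if it was detected on at least 2 of the 4 arrays. This kept 10 of the 13 S100 probes and 7 of the 10 genes, each gene represented by its brightest tested probe. By limma, with Benjamini-Hochberg adjustment over all 20750 tested probes and a threshold of 0.05, S100A10 and S100A6 fell in shSiah2 cells, none rose and 5 of the 7 were not called. Among all 11894 named genes tested, 4.51% fell and 2.72% rose by the same rule. At an unadjusted p under 0.05, 3 of the 7 were lower and 0 were higher, where 12.3% of all named genes were lower and 10.6% higher. The median log2 difference was -0.42 over the 7 genes and 0.01 over all named genes. For 4 of the 7 (S100A6, S100A10, S100A13 and S100P) both shSiah2 arrays lay below both pLKO.1 arrays, a pattern that 26.0% of all named genes showed. The 10 genes were listed with earlier results of these data known, so these shares describe the list and are no test of it.

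**Figure D1:**
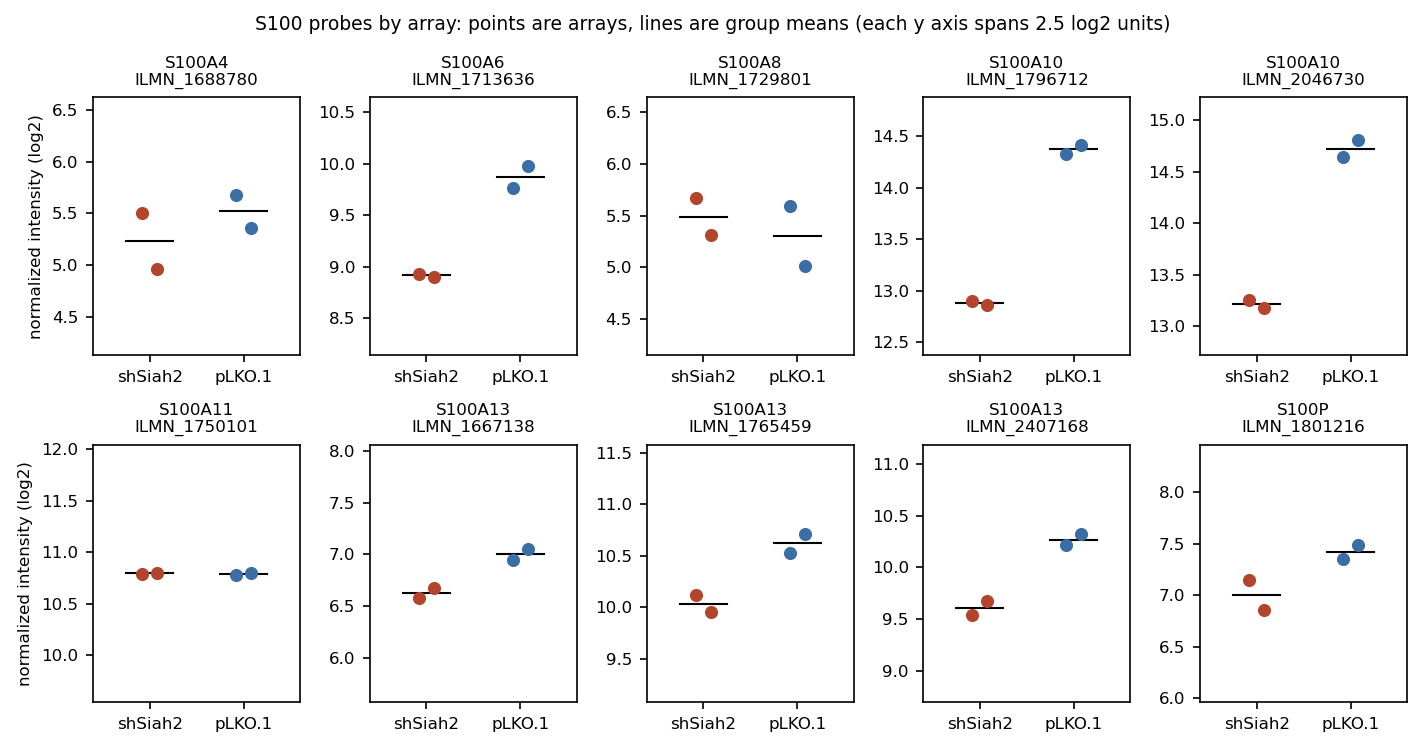
Normalized intensity (log2) of the 10 tested S100 probes, with 1 point per array, shSiah2 left and pLKO.1 right, and a line at each group mean. Every y axis spans the same range on the log2 scale, and the S100A10 and S100A6 probes show the widest gaps between the groups, at -1.51, -1.49 and -0.95.

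S100A10 was measured by a pair of probes, both detected on all 4 arrays. Probe ILMN_2046730 had deposited intensities of 9823.1 and 7923.2 on the shSiah2 arrays, against 24193.0 and 34279.9 on the pLKO.1 arrays. Its normalized intensity was 13.25 and 13.18 (log2) in shSiah2 cells and 14.64 and 14.81 in pLKO.1 cells. The groups were far apart relative to the gap within each, since the 4 differences between an shSiah2 and a pLKO.1 array ran from -1.63 to -1.39. S100A10 fell by 1.51 on the log2 scale (SE 0.240, limma adjusted p = 0.00333), to 35.2% of the pLKO.1 level. In RNA from whole cultures, fewer cells with the transcript and less of it per cell cannot be told apart.

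The other S100A10 probe, ILMN_1796712, gave nearly the same answer. It read 12.90 and 12.86 (log2) on the shSiah2 arrays, against 14.33 and 14.41 on the pLKO.1 arrays. Its log2 difference was -1.49 (SE 0.237, limma adjusted p = 0.00333), so both probes showed a level in shSiah2 cells 2.84-fold and 2.81-fold lower. The call held in all 15 alternative ways of processing, with values from -1.63 to -1.42, including every fit that left out 1 array.

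S100A6, also called calcyclin, is a calcium sensor that binds the ubiquitin ligase adaptor CACYBP, itself known as a Siah-interacting protein. Its probe ILMN_1713636 read 8.93 and 8.90 (log2) in shSiah2 cells, against 9.77 and 9.98 in pLKO.1 cells. The shSiah2 arrays lay close together and below both pLKO.1 arrays. S100A6 fell by 0.95 on the log2 scale (SE 0.241, limma adjusted p = 0.0391), to 51.6% of the pLKO.1 level. This call was near the threshold, and it was lost without pLKO.1 replicate 1 (-1.06, adjusted p = 0.111), without pLKO.1 replicate 2 (-0.85, adjusted p = 0.167), without shSiah2 replicate 1 (-0.97, adjusted p = 0.0723), without shSiah2 replicate 2 (-0.94, adjusted p = 0.118) and with no filter on dim probes (-0.95, adjusted p = 0.0665). CACYBP was not called, with a log2 difference of -0.21 (SE 0.250, limma adjusted p = 0.707).

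S100A13, which takes part in the release of FGF1 from cells without a signal peptide, had 4 probes, 3 of them tested. The brightest, ILMN_1765459, read 10.12 and 9.95 (log2) in shSiah2 cells, against 10.53 and 10.71 in pLKO.1 cells. Probe ILMN_2407168 read 9.54 and 9.68 in shSiah2 cells, against 10.22 and 10.32 in pLKO.1 cells. The dimmer probe ILMN_1667138 read 6.58 and 6.68 in shSiah2 cells, against 6.95 and 7.06 in pLKO.1 cells. On each of these 3 probes the shSiah2 arrays lay below the pLKO.1 arrays, yet none was called. Their log2 differences were -0.58 (95% confidence interval -1.11 to -0.06, limma adjusted p = 0.192), -0.66 (-1.18 to -0.14, adjusted p = 0.136) and -0.37 (-0.90 to 0.15, adjusted p = 0.411). The fourth probe, ILMN_1814799, was detected on 1 shSiah2 array and no pLKO.1 array and was not tested.

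S100P, a member found in placenta and in many carcinomas, was dim but detected on all 4 arrays. It read 7.15 and 6.85 (log2) in shSiah2 cells, against 7.35 and 7.49 in pLKO.1 cells. The groups did not overlap, but the difference of -0.42 was not called (95% confidence interval -0.95 to 0.12, limma adjusted p = 0.371).

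S100A11, a partner of annexin A1, had almost the same value on every array. It read 10.79 and 10.80 (log2) in shSiah2 cells, against 10.78 and 10.80 in pLKO.1 cells. The 95% confidence interval of its difference ran from -0.52 to 0.52 (limma adjusted p = 0.999), so a change of up to about that size in either direction could not be told from none. The sign of this difference, which lay between -0.067 and 0.011 in the alternatives, turned with the scaling and carries no direction.

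The remaining members were close to background. S100A4, a protein that binds non-muscle myosin and is linked to cell migration, had a tested probe (ILMN_1688780) detected on 1 array of each group. It read 5.50 and 4.96 (log2) in shSiah2 cells, against 5.68 and 5.35 in pLKO.1 cells, and the groups overlapped (log2 difference -0.29, 95% confidence interval -0.88 to 0.30, limma adjusted p = 0.605). Its other probe, ILMN_1684306, was detected on 0 shSiah2 arrays and 1 pLKO.1 array and was not tested. S100A8, which pairs with S100A9 as calprotectin in neutrophils and monocytes, was likewise detected on 1 array of each group. It read 5.67 and 5.31 in shSiah2 cells, against 5.59 and 5.01 in pLKO.1 cells, with overlapping groups (log2 difference 0.18, 95% confidence interval -0.42 to 0.79, limma adjusted p = 0.771). S100A16, an EF-hand protein with a broad tissue range, was detected on 0 shSiah2 arrays and 1 pLKO.1 array, at 4.87 and 5.44 in shSiah2 cells and 5.02 and 5.61 in pLKO.1 cells, and was not tested. The intervals of S100A4 and S100A8 bound the change that these arrays leave possible, and S100A16 had no test.

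Of the 11 other S100 family genes, only S100A1 and S100A14 had a tested probe with a name. S100A14, expressed in epithelia, had a log2 difference of -0.39 (limma adjusted p = 0.385), at 5.97 and 6.08 in shSiah2 cells, against 6.48 and 6.35 in pLKO.1 cells. S100A1, best known from heart muscle, had 0.17 (limma adjusted p = 0.749). Neither passed, and neither had an unadjusted p under 0.05.

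Among the annexins, the membrane-binding partners of S100 dimers, ANXA1, ANXA2 and ANXA9 fell in shSiah2 cells. Of 12 annexin genes, 9 were tested by limma, and 3 fell, 0 rose and 6 were not called, where 4.51% of all named genes fell. At an unadjusted p under 0.05, 4 were lower and 0 higher, against 12.3% and 10.6% of all named genes, and the median log2 difference was -0.55. ANXA2, which forms the complex with S100A10, read 8.46 and 8.53 (log2) in shSiah2 cells, against 9.36 and 9.54 in pLKO.1 cells on probe ILMN_2409167. It fell by 0.96 on the log2 scale (SE 0.240, limma adjusted p = 0.0376), while its dimmer probe ILMN_1711899 had -0.64 and was not called (adjusted p = 0.150). The ANXA2 call was near the threshold and was lost in each fit without 1 array, at -1.05 to -0.87 (adjusted p from 0.0865 to 0.155), with no filter on dim probes (-0.96, adjusted p = 0.0627) and with the mean of its probes (-0.80, adjusted p = 0.0625).

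ANXA1, the annexin that S100A11 binds, read 6.75 and 6.65 (log2) in shSiah2 cells, against 8.04 and 8.25 in pLKO.1 cells. It fell by 1.45 on the log2 scale (SE 0.241, limma adjusted p = 0.00455), and by less without background correction (-0.89) and in the authors' value table (-1.07), still past the threshold. ANXA9 was detected on no shSiah2 array and on both pLKO.1 arrays, so it entered the test only through the group where it was high. Its deposited intensities were 115.9 and 119.4 on the shSiah2 arrays, against 150.4 and 167.9 on the pLKO.1 arrays. ANXA9 was at least 1.29-fold lower, the pLKO.1 mean set against the lowest detected signal on each shSiah2 array, with limma adjusted p = 0.0152. That p does not allow for how the filter let the probe in, and the count of annexins that fell includes it. The ANXA9 call was lost without background correction (-0.53, adjusted p = 0.0509), with normexp at offset 50 (-0.61, adjusted p = 0.0685), without pLKO.1 replicate 1 (-1.19, adjusted p = 0.0668) and without pLKO.1 replicate 2 (-1.11, adjusted p = 0.0692). ANXA11 at -0.80 (adjusted p = 0.0726) was not called here, and passed in 5 of its 15 alternatives. ANXA5, a common abundant annexin, was at -0.05.

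**Figure D2:**
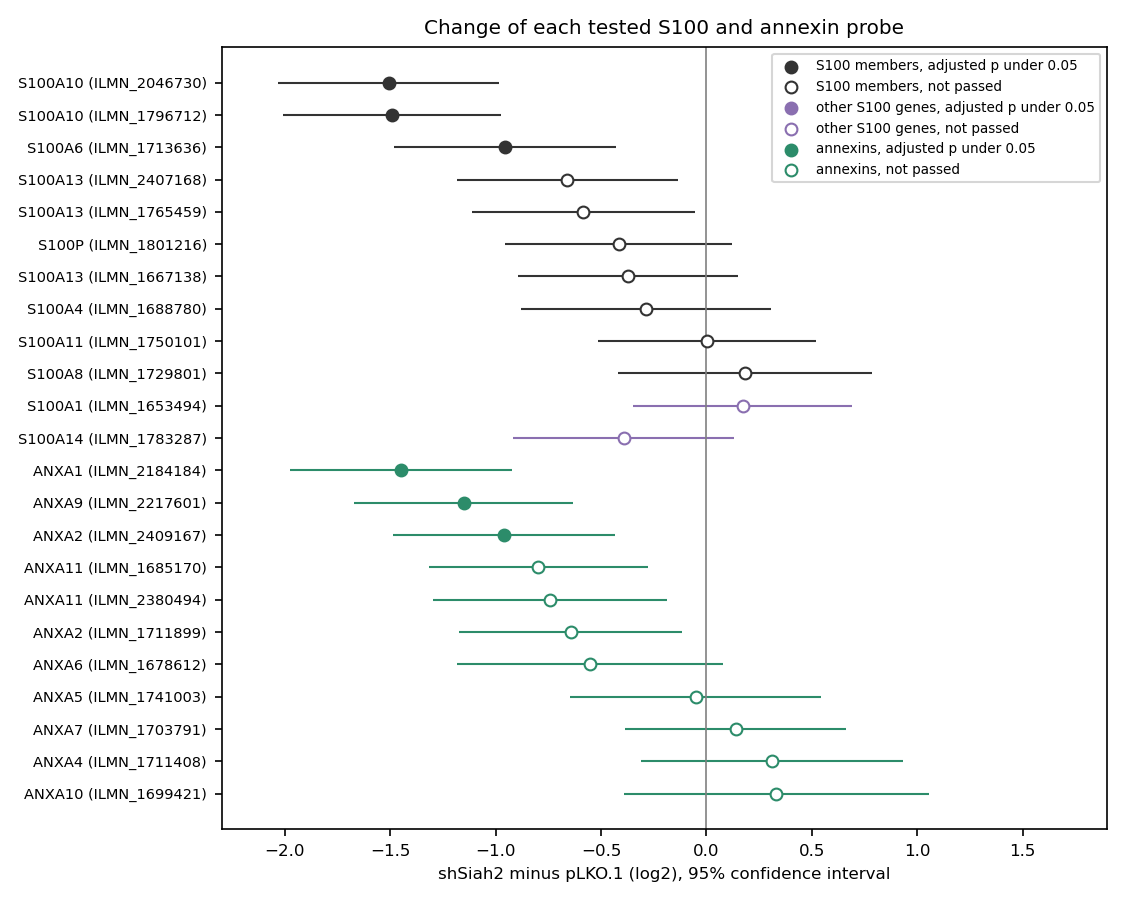
Log2 difference, shSiah2 minus pLKO.1, of every tested probe of the S100 members, the other S100 genes and the annexins, with its 95% confidence interval. Filled points are past the adjusted threshold, namely both S100A10 probes, S100A6, ANXA1, ANXA9 and 1 of the ANXA2 probes.

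Among the receptors of S100 proteins CD36 fell. Of 13 receptors of extracellular S100 proteins, 7 were tested by limma, and 1 fell, 0 rose and 6 were not called, where 4.51% of all named genes fell. At an unadjusted p under 0.05, 2 were lower and 1 was higher, against 12.3% and 10.6% of all named genes. CD36 is a fatty acid and scavenger receptor that also binds the S100A8 and S100A9 complex. It had deposited intensities of 134.7 and 143.3 on the shSiah2 arrays, where it was not detected, against 452.5 and 558.9 on the pLKO.1 arrays. After background correction and normalization it read 4.99 and 5.18 (log2) in shSiah2 cells, against 8.69 and 8.55 in pLKO.1 cells. On that scale alone it was at least 8.93-fold lower (limma adjusted p = 1.19e-05). That p does not allow for the filter, which CD36 passed only through the pLKO.1 arrays, and the count of receptors that fell rests on it. The size changed with the processing: the log2 difference was -3.54 as fitted, -2.65 with offset 50, -2.39 in the authors' value table and -1.90 without correction, past the threshold each time. BSG (basigin, a receptor of S100A9) had -0.86, ALCAM 0.73 and NPTN 0.40, none of them called. BSG passed in 8 of its 15 alternatives, the replicate block among them (adjusted p = 0.0490), ALCAM passed in 3 and NPTN in 0. AGER, the receptor most often linked to S100 ligands, was detected on 1 array of each group and had 0.27 (limma adjusted p = 0.757), a sign that turned in 2 fits without 1 array, while TLR4 was not tested.

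Of 28 intracellular partners, 16 were tested, and limma called 0, with 0 also at an unadjusted p under 0.05 in either direction, where 12.3% of all named genes were lower and 10.6% higher. Among them were SUGT1, a co-chaperone that binds S100A6, at 0.50, CYBA, a subunit of the NADPH oxidase, at 0.44, the S100A4 partner MYH9 at 0.41 and the related myosin MYH10 at -0.39. AHNAK, a giant scaffold that binds the S100A10 and annexin A2 complex, was at 0.02 (SE 0.243). Of 28 other EF-hand calcium sensors, 16 were tested by limma, and 1 fell and 0 rose, or 6.25% lower, near the 4.51% of all named genes. At an unadjusted p under 0.05, 3 of the 16 were lower and 0 higher, against the same 12.3% and 10.6%. CALML4, a calmodulin-like gene, read 9.75 and 9.80 (log2) in shSiah2 cells, against 11.18 and 11.07 in pLKO.1 cells, and fell by 1.35 on the log2 scale (SE 0.238, limma adjusted p = 0.00647). The calpain small subunit CAPNS1 had -0.80, GCA (grancalcin) -0.71 and CALU (calumenin) 0.56, all short of the threshold. CAPNS1 passed in 6 of its 15 alternatives, with an adjusted p as low as 0.00354, GCA in 2 and CALU in 0.

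Along the cluster on chromosome 1, called and uncalled genes lay side by side. S100A10 and S100A11 were next to each other in the order of tested genes, at -1.51 and 0.00093. Among 111 protein-coding genes without an S100A symbol within 1 Mb of a member, 54 were tested by limma, and 5 fell, 0 rose and 49 were not called. That is 9.26% lower, against 4.51% of all named genes, and at an unadjusted p under 0.05, 8 were lower and 5 higher, again against 12.3% and 10.6%. These counts include ANXA9 and CELF3, and that of the 8 also BNIPL, which passed the detection filter only through the pLKO.1 arrays, where they were higher. ANXA9 is counted among the annexins as well. The 5 that fell were ANXA9, the RNA-binding splicing regulator CELF3 at -2.47, the phospholipid flippase ATP8B2 at -1.82, the selenium-binding protein SELENBP1 at -1.64 and the acyl-CoA synthetase SLC27A3 at -1.30. The log2 differences of the other 49 neighbours lay on both sides of 0, and the median of the 54 was -0.07. CELF3 was detected on no shSiah2 array, with deposited intensities of 128.3 and 133.0 there, against 260.8 and 279.7 on the pLKO.1 arrays. It was at least 3.74-fold lower on the background-corrected scale alone, and its log2 difference was -1.11 without correction and -1.54 in the authors' value table, both past the threshold. ATP8B2 was at -1.26 with the mean of its probes and kept its call. SLC27A3 was not called without pLKO.1 replicate 1 (-1.08, adjusted p = 0.122), without shSiah2 replicate 2 (-1.07, adjusted p = 0.0763) or with no filter on dim probes (adjusted p = 0.0615).

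**Figure D3:**
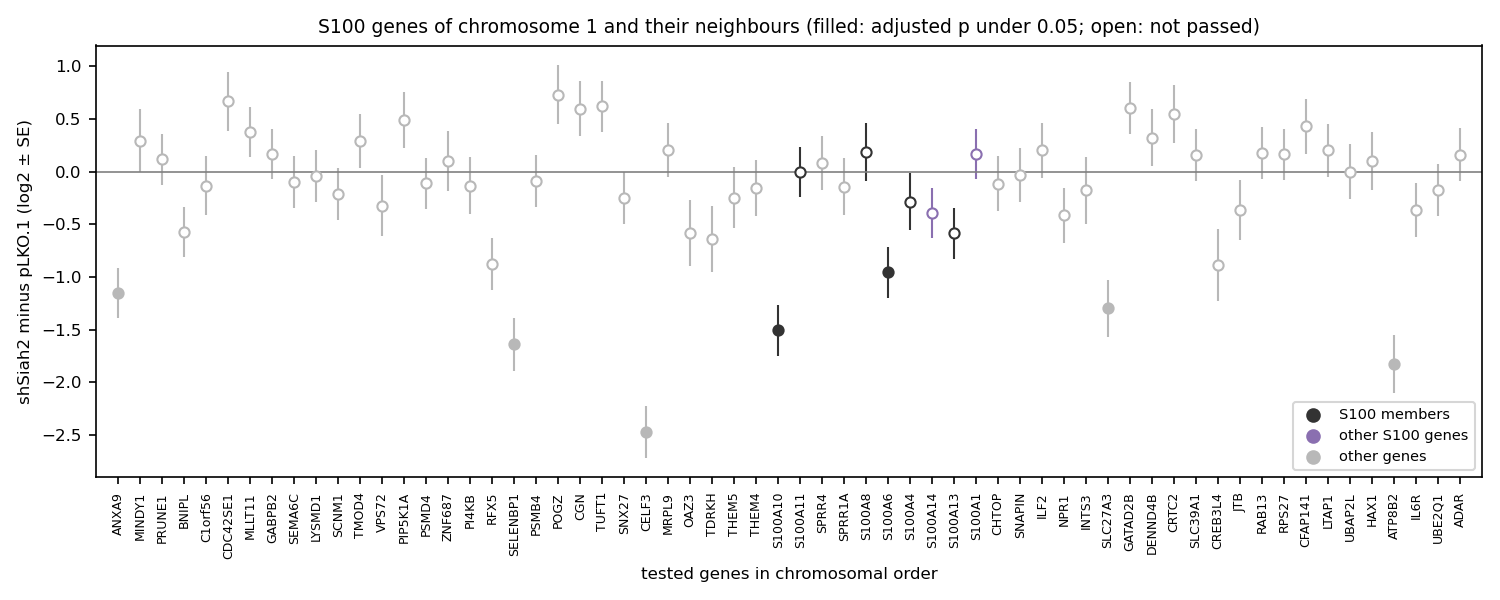
Log2 difference, shSiah2 minus pLKO.1 (± SE), of tested genes of the chromosome 1 cluster and its neighbours, in chromosomal order with even spacing. S100A10 at -1.51 and S100A6 at -0.95 stand among members and neighbours on both sides of 0, and filled points passed the adjusted threshold.

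The genes whose profile over the 4 arrays was most like that of S100A10 were GALM, ANXA1, LPL, DLG3 and PRKRA. The measure was the root mean square distance between log2 values centred on each probe's mean, which was 0.0186 for GALM, 0.0335 for ANXA1, 0.0482 for LPL, 0.0627 for DLG3 and 0.0636 for PRKRA. With 4 arrays in 2 groups, this mostly ranks genes by a like size of the difference between groups. GALM, a sugar mutarotase, had a log2 difference of -1.48, which was -0.91 without background correction and -1.10 in the authors' value table. LPL, lipoprotein lipase, was detected on no shSiah2 array, with deposited intensities of 147.5 and 147.5 there, against 195.1 and 254.2 on the pLKO.1 arrays. It was at least 2.67-fold lower on the background-corrected scale alone, where the log2 difference was -1.58, against -0.65 without correction, -1.05 with offset 50 and -0.89 in the authors' value table.

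Most markers of other cell types had no probe with a name here, so their presence or absence could not be read. Each marker with a named probe was detected on at least 1 array. Among 8 myeloid markers, cells in which S100A8 is abundant, PTPRC, ITGAM, CSF1R, CD163 and CYBB had no probe with a name, LYZ was detected on 1 array, CD14 on 3 and FCGR3B on all 4. The summed linear normalized intensity of the 2 tested myeloid markers was 250.8 to 359.3 on the shSiah2 arrays and 307.1 to 326.9 on the pLKO.1 arrays. Of 5 basal markers, KRT15 alone had a named probe, detected on both pLKO.1 arrays and on no shSiah2 array. It entered the test only through the group where it was high. Its values were 31.3 to 32.3 in shSiah2 cells, which is undetected signal, and 54.1 to 54.8 in pLKO.1 cells. Of 4 endothelial markers, KDR alone had a named probe, detected on 1 array. Of 6 stromal markers, 3 were detected on all 4 arrays, and the sum over 4 tested was 3401 to 3819 in shSiah2 cells and 1685 to 1867 in pLKO.1 cells. That sum mostly follows the brightest of them, LUM, at 11.28 and 11.60 (log2) in shSiah2 cells and 10.05 and 10.19 in pLKO.1 cells. It does not describe the markers as a set, which changed in both directions. LUM rose by 1.32 on the log2 scale, ACTA2 rose by 1.10 and DCN fell by 1.98. The LUM call was lost without pLKO.1 replicate 1 (adjusted p = 0.0601). That of ACTA2 was lost with no filter on dim probes (adjusted p = 0.0524) and without pLKO.1 replicate 1 (adjusted p = 0.118), pLKO.1 replicate 2 (adjusted p = 0.0667) or shSiah2 replicate 1 (adjusted p = 0.0799). DCN was at -0.65 with the mean of its probes (adjusted p = 0.117), and at -1.14 without background correction, where it kept its call. The part that these shifts have in the S100 results was not tested. Of the 6 luminal markers named above, HOXB13 fell by 1.58 on the log2 scale, and the other 5 were not called.

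**Figure D4:**
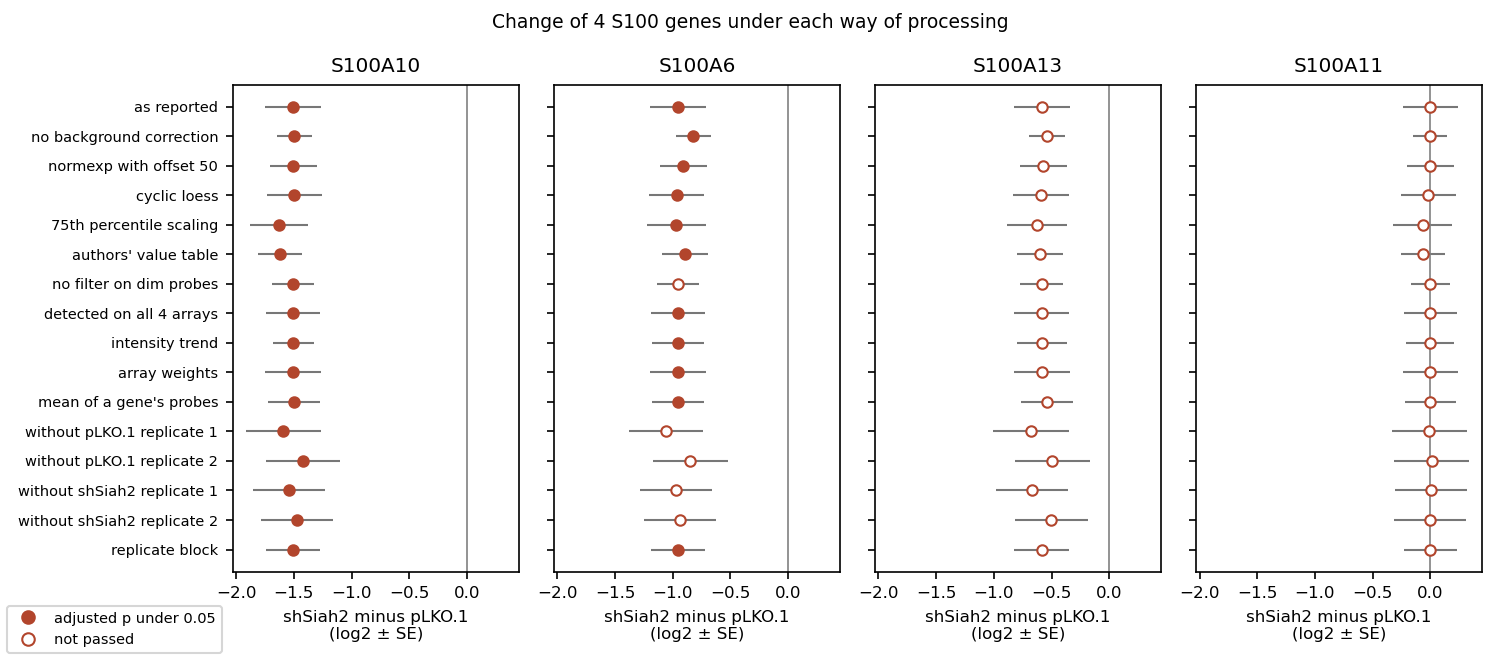
Log2 difference (± SE) of S100A10, S100A6, S100A13 and S100A11 as reported and under each of 15 alternative ways of processing. S100A10 stays between -1.63 and -1.42 and is past the adjusted threshold throughout, S100A6 stays between -1.06 and -0.82 and is past it in 10 of the 15, S100A13 in 0, and S100A11 stays between -0.067 and 0.011.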

How the data were processed

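The authors deposited 2 tables. One held the linear intensity of 47228 probes, naming no normalization, and a detection p-value per probe and array, per the file headers. The other, the authors' value table, held the 24733 probes detected (p under 0.05) on 1 array or more. The authors' values in it are log2, as their slope against the log2 intensity of bright probes (1.01 to 1.02) shows, their column medians lay between 7.59 and 7.62, and how it was scaled is unknown.

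The neqc function of limma 3.58.1 (R 4.3.3) was applied to the intensities (normexp background from detection p-values, offset 16, quantile normalization, log2). Probes detected at p under 0.05 on 2 or more of the 4 arrays entered a two-sided test by lmFit and eBayes without covariates. Benjamini-Hochberg adjustment ran over 20750 probes. ANXA9, CD36, CELF3, LPL and KRT15 passed this filter only through the pLKO.1 arrays, where they were higher, and their p-values do not allow for that. The same holds for BNIPL, a chromosome 1 neighbour counted among those lower at an unadjusted p. The test was tried on data simulated with independent normal noise, as the method assumes. That trial does not speak to technical replicates or to the noise of these arrays. The number of arrays limits the precision. With 2 arrays against 2, an exact permutation test cannot go below p = 0.333, so none is given.

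Names came from the platform annotation, updated through Entrez IDs to RefSeq symbols (GRCh38.p14), and 18007 probes had 1 symbol, 4 several and 29217 none here. Levels of different probes were used to choose each gene's brightest probe and to call a probe bright or dim, and were summed over marker probes. Genes were not otherwise ranked by level. Samples were grouped by their titles. The replicate numbers are not stated to pair the samples. Named genes were every S100 probe, the called genes and the 4 largest absolute differences of each list, and the 5 genes most like S100A10. AHNAK, CACYBP, AGER and ANXA5 were added after their values were seen, and TLR4 was named only as not tested. Some list genes are not reported here. Members and lists were chosen with earlier results of these data known. Alternatives were other background corrections, scalings, filters, variance models, array weights, the authors' table, the mean of a gene's probes, leaving out each array and a replicate block.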

Additional observations from a re-analysis of the deposited data

How the results depend on the processing

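The count of S100 members lower in shSiah2 cells was 2 as reported and in 10 of 15 alternatives. It was 1 with no filter on dim probes and 1 in each fit that dropped an array, S100A6 being the call lost each time. The count of members higher was 0 throughout. S100A10 kept its direction and its call in all 15. The S100A11 difference of 0.00093 changed sign with cyclic loess (-0.019), 75th percentile scaling (-0.067), the authors' value table (-0.064) and in the fits that dropped pLKO.1 replicate 1 (-0.0094) or shSiah2 replicate 2 (-0.0036), and was 0.011 at most, without pLKO.1 replicate 2. That of S100A8 changed sign without pLKO.1 replicate 2 (-0.11), and reached 0.47 without pLKO.1 replicate 1. S100A4 and S100A8 gave no value with detection required on all 4 arrays. The differences of S100A13 (-0.68 to -0.49), S100P (-0.56 to -0.24) and S100A4 (-0.56 to -0.02) kept their sign and were never called. For 40 genes that are no members, 595 values were computed: 543 kept direction and side of the threshold, 19 lost a call, 24 gained one and 9 changed sign, and the cause was not tested. The 9 were of uncalled genes. FOXA1 changed sign with 75th percentile scaling (-0.021) and the authors' value table (-0.018). Over the fits that dropped an array, ANXA5 ran from -0.38 to 0.27, KRT18 from -0.27 to 0.083, AHNAK from -0.11 to 0.16 and AGER from -0.31 to 0.84. All probes called numbered 640 with no filter on dim probes, 520 when pLKO.1 replicate 1 was dropped, 856 when pLKO.1 replicate 2 was and 800 when shSiah2 replicate 2 was, against 1284 as reported. Same-numbered arrays deviated from their group means with a correlation of 0.0891, which with 2 arrays per group cannot show whether they pair. The numbers were not taken as pairs because the labels do not state a pairing. With the replicate block, 1815 probes were called, and S100A10 at -1.51 (limma adjusted p = 0.00226) and S100A6 at -0.95 (adjusted p = 0.0275) kept their calls. S100A4, S100A8 and S100A16 lay near background, where dim signal limits what can be detected, and folds of probes undetected on the shSiah2 arrays depend on the background correction.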
